A study of Mus musculus with 15 samples.

Results

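The nuclear genes for subunits of the mitochondrial respiratory chain and ATP synthase were followed in mouse embryonic stem cells (mESCs) with altered STAG1 and STAG2, the alternative subunits that join the cohesin ring. Members were taken by symbol: Nduf followed by a, b, c, s or v and a number, Cox4 to Cox8 with their letters, Uqcr, Atp5, Sdha to Sdhd, Cycs and Cyc1. This rule found 86 of the 23412 genes counted, and 81 of the 14508 genes with enough counts to be tested. By complex, 34 tested genes belong to complex I, 4 to complex II, 9 to complex III, 16 to complex IV and 15 to complex V, and Cycs encodes cytochrome c. Ndufa4 and Ndufa4l2 were placed with complex IV, where the NDUFA4 protein is known to sit. The other two tested genes, Atp5s and Atp5sl, carry the ATP synthase name but encode no subunit of it. The 13 protein genes of mitochondrial DNA were not analysed here.

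The respiratory chain sits in the inner mitochondrial membrane. Complex I takes electrons from NADH and complex II from succinate, ubiquinone carries them to complex III, cytochrome c carries them to complex IV, and oxygen accepts them there. Complexes I, III and IV pump protons, and complex V, the ATP synthase, lets protons flow back through a rotating ring to make ATP. Naive mESCs are known to respire as well as to ferment glucose, and several complex IV and complex V subunits exist as isoforms used in particular tissues.

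PolyA RNA was sequenced from 15 libraries, 3 in each of 5 conditions, all from the male v6.5 line grown on gelatin and collected 48 h after transfection with siRNA at 50 nM. Wild-type siGLO cells received the control siRNA siGLO. Stag1-/- siGLO and Stag2-/- siGLO cells are knockouts made with CRISPR that received the same control, and each genotype is 1 clone, so a genotype and its clone cannot be told apart. Wild-type siStag1 and Stag2-/- siStag1 cells received an siRNA against Stag1. The Stag1-/- clone carries an in-frame deletion of part of an exon. The study calls its RNA-seq replicates of the wild-type and knockout lines biological. No source used here says how far they were grown and transfected apart, so p-values measure only the spread between these libraries.

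Each library held 14982560 to 19070126 counts on genes (median 17700059). A floor of 3 counts corresponds to 2.71 to 3.5 normalized counts, a unit in which each count is scaled by TMM to the mean effective library size. It covers counting error only. Stag2 had 2329 to 2334 normalized counts in wild-type siGLO and 663 to 739 in Stag2-/- siGLO. Stag1 was at 353 to 517 in wild-type siStag1 and at 629 to 781 in Stag2-/- siStag1 against 2012 to 2288 in wild-type siGLO. In Stag1-/- siGLO it was at 1826 to 2368, so the level of this transcript does not check that label. The 7 embryonic stem cell markers, Pou5f1, Sox2, Nanog, Zfp42, Esrrb, Dppa5a and Utf1, were detected in every condition. Their summed level was 82793 to 89245 normalized counts in wild-type siGLO, 65589 to 77784 in Stag1-/- siGLO, 59668 to 78321 in Stag2-/- siGLO, 76088 to 79824 in wild-type siStag1 and 40901 to 55107 in Stag2-/- siStag1. The sum of the 4 primitive endoderm markers Gata6, Gata4, Sox17 and Dab2 was 3281 to 3615 in wild-type siGLO, 284 to 454 in Stag1-/- siGLO, 622 to 966 in Stag2-/- siGLO, 3184 to 3552 in wild-type siStag1 and 689 to 890 in Stag2-/- siStag1. The sum of the 4 neural markers Pax6, Sox1, Nes and Tubb3 was 1905 to 2700 in wild-type siGLO, 2136 to 2493 in Stag1-/- siGLO, 2929 to 4526 in Stag2-/- siGLO, 1912 to 2334 in wild-type siStag1 and 3329 to 5657 in Stag2-/- siStag1. The 4 mesoderm markers T, Mixl1, Eomes and Mesp1 summed to 214 to 318 in wild-type siGLO, 210 to 282 in Stag1-/- siGLO, 171 to 483 in Stag2-/- siGLO, 224 to 281 in wild-type siStag1 and 127 to 159 in Stag2-/- siStag1. The 6 fibroblast feeder markers Col1a1, Col1a2, Col3a1, Thy1, Postn and Lum summed to 295 to 553, 407 to 570, 327 to 646, 288 to 362 and 378 to 439 in the same order, with Lum at or under the floor in all conditions. Single markers moved within these sums. T, at 6.78 to 11.2 normalized counts in wild-type siGLO, rose to 35.9 to 268 in Stag2-/- siGLO, a called rise without overlap, while Eomes of the same list fell, from 186, 258 and 295 to 114, 193 and 96.1, with overlap (-0.87, SE 0.24, adjusted p = 0.018). Col3a1, at 4.67 to 14.5, rose there to 8.45 to 96.3, with overlap (2.10, SE 0.85, adjusted p = 0.0918). Sox1, at 361 to 542, fell to 35 to 83.2 in Stag1-/- siGLO (-2.90, SE 0.6, adjusted p = 0.004). The 3 other neural markers had positive estimates there that were not called (Pax6 0.54, Nes 0.48, Tubb3 0.32). With the replicate number as a block, Nes was called (adjusted p = 0.0675). In Stag2-/- siStag1, where the neural sum rose, the mean of Sox1 was 254 against 440. Its libraries had 54.2, 225 and 483 normalized counts against 542, 361 and 417, with overlap. The part of these cell states in the results that follow was not tested, and in bulk RNA fewer cells of a type and less RNA per cell cannot be told apart.

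The 86 genes together took 1.12% to 1.13% of all gene counts in wild-type siGLO, 0.915% to 1.06% in Stag1-/- siGLO, 1.1% to 1.18% in Stag2-/- siGLO, 1.08% to 1.22% in wild-type siStag1 and 1.03% to 1.1% in Stag2-/- siStag1. Among tested members in wild-type siGLO the mean level ran from 33.6 normalized counts for Cox4i2 to 34303 for Atp5b, with a median of 1510. Per kilobase of transcript, Atp5b was also the highest, at 17904 normalized counts per kb against a median of 1568. Its level per kb was 187% ± 6.48 (SD, n = 3) of that of Atp5a1, the alpha subunit with which it forms the catalytic head F1. Of the 5 members not tested, Cox6a2, Cox8b and Cox8c had at most 9 raw counts in any library and Cox7b2 at most 23. Ndufs5, a complex I subunit, is listed at 0 in all 15 libraries, which says nothing of its expression.

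Loss of STAG1 function was examined first, by comparing Stag1-/- siGLO with wild-type siGLO. The largest called fall was in Atp5b, which encodes the catalytic beta subunit of ATP synthase, and no member rose. At a Benjamini-Hochberg adjusted p under 0.1 in edgeR's quasi-likelihood test, 6 of 81 members were called, all lower, where 20.0% of all tested genes were called, 10.1% higher and 9.93% lower. The median log2 fold change of the members was -0.058, against -0.013 over all tested genes. Complexes I and V each had 2 calls, complexes II and III 1 each, and none fell in complex IV or in cytochrome c. With the replicate number as a block there were 5 calls in complex I and 3 in complex V. Complexes III and IV then had 2 each, and complex II and cytochrome c 1 each. Cox4i2, a minor isoform of complex IV at trace level, had a larger estimate that was not called, with 9.84, 18.5 and 15.4 normalized counts against 15.9, 33.6 and 51.3 (-1.19, SE 0.47, adjusted p = 0.109).

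Atp5b lies at chr10:128083273-128090391 (mm10, GENCODE M21). Its normalized counts were 34595, 33922 and 34393 in wild-type siGLO and 18895, 17513 and 17576 in Stag1-/- siGLO. They were 36264, 32664 and 32928 in Stag2-/- siGLO, 33588, 34652 and 35534 in wild-type siStag1 and 33530, 32007 and 30651 in Stag2-/- siStag1. All 3 Stag1-/- libraries lay far under the 12 others, among which every Stag2-/- siStag1 library and replicates 2 and 3 of Stag2-/- siGLO lay below all libraries of both wild-type conditions. Atp5b fell by 47.5% in Stag1-/- siGLO (log2 fold change -0.93, SE 0.069, adjusted p = 3.86e-07). Leaving out any 1 library gave -0.97 to -0.91 with an adjusted p of at most 9.63e-06. The exact two-sided permutation p over the 6 libraries was 0.1, the smallest this design can give. After acute depletion of STAG1 in wild-type siStag1 cells the log2 fold change of Atp5b was 0.01 (SE 0.068, adjusted p = 0.999), in Stag2-/- siGLO -0.01 (SE 0.068, adjusted p = 0.897), and in Stag2-/- siStag1 -0.10 (SE 0.068, adjusted p = 0.284).

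None of the other tested subunits of the F1 part, Atp5a1, Atp5c1, Atp5d and Atp5e, was called. Atp5a1, the alpha subunit, had 26722, 25477 and 23472 normalized counts in Stag1-/- siGLO against 23579, 24349 and 23098 in wild-type siGLO (log2 fold change 0.09, 95% interval -0.04 to 0.23, adjusted p = 0.434). Atp5c1, the gamma subunit that turns inside the head, had 4074, 4291 and 4255 against 4065, 4270 and 4158 (0.01, 95% interval -0.12 to 0.15, adjusted p = 0.92). In both genes the groups overlapped. The level of Atp5b per kb was therefore 92.1% ± 4.04 (SD, n = 3) of Atp5a1 in Stag1-/- siGLO, against 187% ± 6.48 in wild-type siGLO, 199% ± 12.6 in Stag2-/- siGLO, 190% ± 2.66 in wild-type siStag1 and 200% ± 1.35 in Stag2-/- siStag1. Summed over complex V without Atp5b, the level per kb was 43489 ± 3200 in Stag1-/- siGLO and 44120 ± 1224 in wild-type siGLO.

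**Figure D1:**
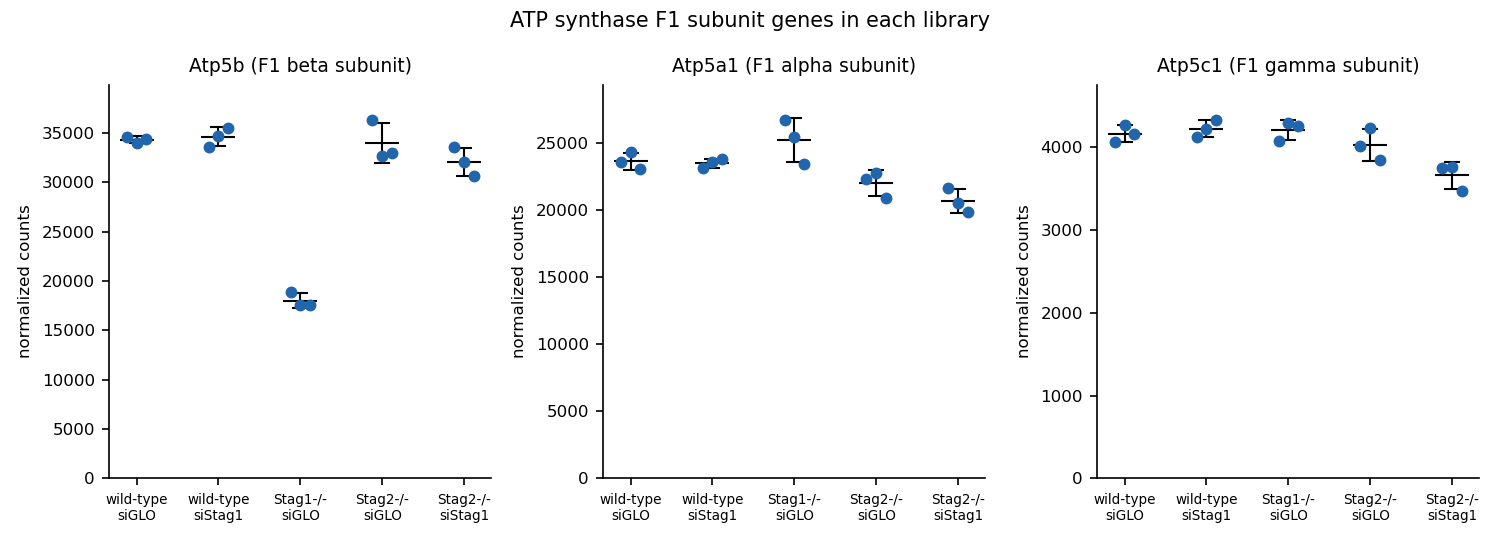
Normalized counts (vertical axis, from 0) of Atp5b, Atp5a1 and Atp5c1 in each of the 15 libraries (points), by condition, with mean and SD (bars, n = 3). The Stag1-/- siGLO libraries sit at 17513 to 18895 for Atp5b and within or above the wild-type siGLO range for Atp5a1.

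The genes next to Atp5b were then read in the same comparison. These neighbours were chosen after the fall of Atp5b was seen. Ptges3, which encodes the HSP90 co-chaperone p23, lies just before Atp5b, and Baz2a, which encodes the TIP5 subunit of a chromatin remodelling complex, just after it. Ptges3 had 4174, 4997 and 4931 normalized counts in Stag1-/- siGLO against 9103, 9002 and 8963 in wild-type siGLO. Baz2a had 5099, 5182 and 4799 against 7962, 8535 and 10100. Both fell, Ptges3 with -0.94 on the log2 scale (SE 0.08, adjusted p = 1.43e-06) and Baz2a with -0.82 (SE 0.086, adjusted p = 1.28e-05), and both calls held without any 1 library. With Atp5b they fill chr10:128058954-128129303, a stretch of 70.3 kb with no other tested gene.

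The next tested gene on each side was not called. Naca, 10.3 kb before Ptges3, had 9933, 9469 and 9898 normalized counts in Stag1-/- siGLO against 10710, 9664 and 9432 (log2 fold change -0.02, SE 0.08, adjusted p = 0.883). Rbms2, 2.3 kb after Baz2a, had 1370, 1138 and 1016 against 1083, 1119 and 1029 (log2 fold change 0.13, SE 0.11, adjusted p = 0.487). Both pairs of groups overlapped. Of the 20 tested genes nearest to Atp5b by order, 4 fell and none rose, with a median log2 fold change of -0.23. The other two that fell, Stat6 (-0.38, SE 0.082, adjusted p = 0.00518) and Myo1a (-1.57, SE 0.41, adjusted p = 0.0164), lie further before it, with uncalled genes between.

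**Figure D2:**
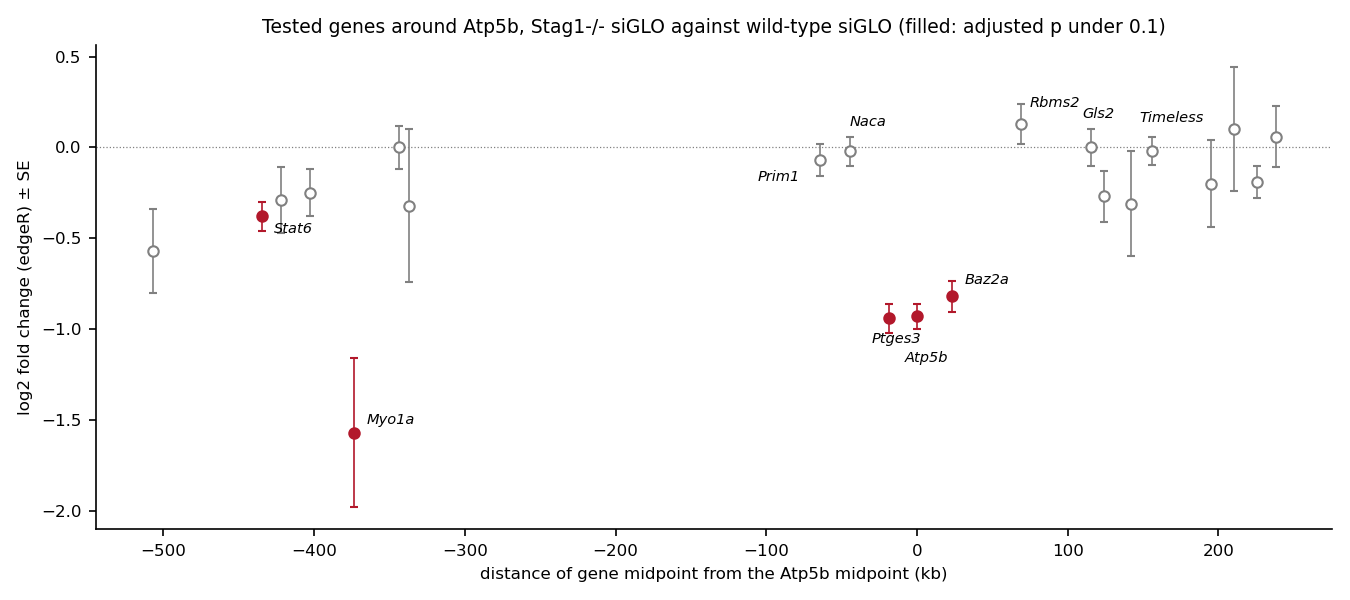
Log2 fold change ± SE (edgeR, Stag1-/- siGLO against wild-type siGLO, n = 3 each) of Atp5b and the 20 tested genes nearest to it, against the distance of each gene's midpoint from that of Atp5b in kb; filled points have an adjusted p under 0.1. Ptges3, Atp5b and Baz2a lie together between -0.94 and -0.82, with Naca and Rbms2 near 0 on either side.

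In other conditions these genes moved less. Ptges3 had log2 fold changes of 0.18 in Stag2-/- siGLO (adjusted p = 0.118), -0.05 in wild-type siStag1 (adjusted p = 0.999) and -0.01 in Stag2-/- siStag1 (adjusted p = 0.943). With the replicate number as a block its rise in Stag2-/- siGLO was called (adjusted p = 0.0652). Baz2a had -0.08 (adjusted p = 0.526) and -0.14 (adjusted p = 0.943) in Stag2-/- siGLO and wild-type siStag1 and fell in Stag2-/- siStag1 (-0.26, SE 0.085, adjusted p = 0.0271), a call that not every fit with 1 library left out kept (adjusted p up to 0.16). The Stag1-/- genotype is 1 clone, and whether the DNA of this stretch differs in it was not tested.

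The other members that fell in Stag1-/- siGLO changed by much less. Sdhd, a membrane anchor of complex II at chr9:50596357-50603812, had 1975, 1925 and 2226 normalized counts against 2530, 2488 and 2481 in wild-type siGLO and fell by 18.3% (log2 fold change -0.29, SE 0.079, adjusted p = 0.0213). Uqcrq, a small subunit of complex III, had 1686, 1270 and 1860 against 2334, 2148 and 1937 and fell by 24.9% (-0.41, SE 0.14, adjusted p = 0.0653). For both genes every knockout library was under every control library. Atp5f1, subunit b of the stalk that holds the ATP synthase head in place, fell too (-0.23, SE 0.071, adjusted p = 0.0388). Ndufb11 (-0.27, SE 0.096, adjusted p = 0.0701) and Ndufb8 (-0.22, SE 0.076, adjusted p = 0.0583), accessory subunits in the membrane arm of complex I, fell as well. Exons of Atp5f1 overlap Wdr77 and Gm42890 over 21% of their length, those of Ndufb8 overlap Gm20538 over 19.7% and those of Ndufb11 overlap Rbm10 over 12.9%. The sources used here do not state whether counting used strand.

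Atp5b and Sdhd kept their calls whichever 1 of the 6 libraries was left out, and the 4 others did not. Atp5f1, Ndufb11, Ndufb8 and Uqcrq all lost theirs without wild-type siGLO replicate 2 (adjusted p of 0.108 to 0.252, 2 members called in all). Atp5f1, Ndufb11 and Uqcrq lost them without wild-type siGLO replicate 1 (0.126 to 0.197), and Ndufb11, Ndufb8 and Uqcrq without Stag1-/- siGLO replicate 2 (0.185 to 0.245), which also moved the members' median to 0.003. Atp5f1 and Uqcrq lost them without Stag1-/- siGLO replicate 1 (0.114 to 0.115), Ndufb8 without wild-type siGLO replicate 3 (0.127), and Ndufb11 without Stag1-/- siGLO replicate 3 (0.102), although 14 members were then called and the median was -0.148. With the replicate number as a block, 14 members were called, all lower, Cycs (adjusted p = 0.0454) and Cox4i2 (adjusted p = 0.0482) among those added.

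Loss of STAG2 was examined by comparing Stag2-/- siGLO with wild-type siGLO. Here 9 members rose and 2 fell, the risers being small subunits of complexes I, III, IV and V and the largest fall being in Cox4i2, a minor isoform of complex IV. The 11 calls among 81 members stand beside 28.3% of all tested genes called, 13.9% higher and 14.4% lower. The median log2 fold change was 0.048 over members and 0.007 over all tested genes. Complex I had 4 rises, complexes III and V 2 each, and complex IV 1, and no member of complex II was called.

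Atp5k, the small membrane subunit e of ATP synthase at chr5:108433244-108434448, had 466, 392 and 406 normalized counts in wild-type siGLO and 977, 614 and 717 in Stag2-/- siGLO. All 3 knockout libraries were above the controls, with replicate 1 well above the others. Atp5k rose by 82.6% (log2 fold change 0.87, SE 0.22, adjusted p = 0.0112). Ndufa1, an X-linked accessory subunit of complex I, had 531, 416 and 463 against 348, 285 and 298 and rose by 51.5% (0.60, SE 0.19, adjusted p = 0.0314). Cox7c, a small subunit of complex IV, had 5050, 4049 and 4004 against 3533, 3270 and 2937 and rose by 34.5% (0.43, SE 0.14, adjusted p = 0.0429). Up to 24.6% of the stretches of 150 bases in its transcript are shared with copies elsewhere, so its counts are uncertain.

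Atp5e, the epsilon subunit of the rotor (0.39, SE 0.13, adjusted p = 0.0407), and the complex I subunits Ndufa2 (0.39, SE 0.15, adjusted p = 0.0801), Ndufb3 (0.38, SE 0.13, adjusted p = 0.0547) and Ndufa5 (0.37, SE 0.093, adjusted p = 0.011) rose, as did Uqcrh (0.37, SE 0.1, adjusted p = 0.0168), the hinge protein by which complex III meets cytochrome c, and Uqcrb (0.33, SE 0.14, adjusted p = 0.099). Uqcrb aside, the replicates of these genes did not overlap between the groups. Uqcrc2, a core protein of complex III at chr7:120635176-120659524, went the other way. It had 2495, 2598 and 2567 normalized counts against 3183, 3298 and 3028 and fell by 19.4% (-0.31, SE 0.073, adjusted p = 0.00699). Its exons overlap Pdzd9 over 26.6% of their length. Its partner core protein Uqcrc1 had 4989, 4720 and 4402 against 4960, 5709 and 5604, with overlap at the margin (-0.21, SE 0.087, adjusted p = 0.105).

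Cox4i2 at chr2:152754173-152765037 encodes the isoform of subunit 4 known from lung and from low oxygen. It had 15.9, 33.6 and 51.3 normalized counts in wild-type siGLO and 12.7, 11.9 and 11.6 in Stag2-/- siGLO. Its wild-type replicates thus spread widely, the lowest of them close to the knockout. It fell by 63.8% (-1.47, SE 0.49, adjusted p = 0.0455). Its main isoform Cox4i1 had 6381, 5130 and 5432 against 6615, 6310 and 6543 (-0.20, SE 0.11, adjusted p = 0.205). Cox4i2 was thus 0.224% ± 0.0168 (SD, n = 3) of Cox4i1 per kb in Stag2-/- siGLO and 0.541% ± 0.284 in wild-type siGLO, a trace either way.

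Atp5k, Ndufa5, Uqcrh and Uqcrc2 kept their calls with any 1 library left out, and the 7 others did not. Without wild-type siGLO replicate 2 all 7 were lost (adjusted p of 0.104 to 0.211, 4 members called), and without wild-type siGLO replicate 3 Atp5e, Cox4i2, Cox7c, Ndufa2 and Uqcrb (0.137 to 0.294, 6 called). Cox7c, Ndufa2, Ndufb3 and Uqcrb lost them without Stag2-/- siGLO replicate 1 (0.156 to 0.342), which left 5 rises and 5 falls and moved the members' median to -0.005. That median was 0.076 without Stag2-/- siGLO replicate 2 and 0.030 without wild-type siGLO replicate 3. Cox4i2, Ndufa2 and Uqcrb lost them without Stag2-/- siGLO replicate 2 (0.111 to 0.154), Cox4i2 without Stag2-/- siGLO replicate 3 (0.104) and Ndufa2 without wild-type siGLO replicate 1 (0.105). With the replicate number as a block 21 members were called, 17 higher and 4 lower.

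The core motif of NRF1, a factor long tied to respiratory chain genes, was looked for upstream of the members. Windows of Atp5k and of 3 other members that hold it are printed with that of Atp5b, in which it was not found. RefSeq windows of 300 bases, from 250 before to 50 after the start, were matched for 70 of the 86 members. The core GCATGCGC was found on either strand in 11 of these 70 (15.7%), Atp5g2, Atp5k, Atp5l, Cox6a1, Cycs, Ndufa11, Ndufa6, Ndufa8, Sdhb, Uqcr11 and Uqcrc1. It was found in a window of 3.05% of 27025 RefSeq genes. These include genes not tested here, and no set matched for expression was compared. The ETS motif CCGGAAGT was found, again on either strand, in 5 members (7.14%, against 4.31% of all genes) and the YY1 motif AAGATGGC in 11 (15.7%, against 3.19%). A match is a description and not a bound site, and its absence says only that these letters are not in the window. Each line below gives 100 bases upstream of the RefSeq start (GRCm38.p6), 5′ to 3′ along the gene, with the NRF1 core in capitals, which in these windows mark its 2 orientations overlapping.
Atp5k, chr5:108434400-108434499, minus strand: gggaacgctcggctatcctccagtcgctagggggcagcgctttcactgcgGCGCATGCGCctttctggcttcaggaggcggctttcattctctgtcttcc
Atp5g2, chr15:102671048-102671147, minus strand: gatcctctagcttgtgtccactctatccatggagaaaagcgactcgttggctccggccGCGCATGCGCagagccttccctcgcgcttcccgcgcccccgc
Ndufa11, chr17:56717662-56717761, plus strand: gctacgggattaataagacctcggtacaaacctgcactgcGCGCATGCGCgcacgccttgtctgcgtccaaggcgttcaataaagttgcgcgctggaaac
Cox6a1, chr5:115349059-115349158, minus strand, from 200 to 101 bases before the start: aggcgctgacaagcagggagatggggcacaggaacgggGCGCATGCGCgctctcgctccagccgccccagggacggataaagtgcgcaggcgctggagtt
Atp5b, chr10:128083207-128083306, plus strand: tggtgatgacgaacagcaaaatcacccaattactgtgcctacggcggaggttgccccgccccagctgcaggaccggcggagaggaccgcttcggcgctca
The capitals begin 50 bases before the start in Atp5k, 42 in Atp5g2, 60 in Ndufa11 and 162 in Cox6a1. The GENCODE gene covers 49 bases of the Atp5k window and reaches into its capitals, all 100 of the Atp5g2 window and 34 of the Atp5b window, so for these genes the RefSeq start is not the only one annotated. Among the 11 members listed with the core, Atp5k alone was called in Stag2-/- siGLO. The list holds no other member that rose there, though 16 of the 86 had no matched window.

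Acute depletion of STAG1 alone was examined by comparing wild-type siStag1 with wild-type siGLO. No member was called by edgeR, where 0.248% of all tested genes were called, and none by DESeq2 or with the replicate block. Unadjusted, 2 of 81 (2.47%) had a p under 0.05, a smaller share than the 922 of all tested genes (6.36%). These were Atp5k (463, 605 and 776 normalized counts against 466, 392 and 406, log2 fold change 0.55, SE 0.22, adjusted p = 0.646) and Sdhd (2139, 2250 and 2271 against 2530, 2488 and 2481, -0.17, SE 0.079, adjusted p = 0.781). Replicate 1 of Atp5k lay at the level of the controls, whereas all 3 Sdhd libraries lay below them. The members' median log2 fold change was 0.035, against -0.002 over all tested genes, and it was -0.014 without wild-type siStag1 replicate 3, 0.088 without wild-type siStag1 replicate 1, 0.021 without wild-type siStag1 replicate 2, 0.055 without wild-type siGLO replicate 1 and 0.020 without wild-type siGLO replicate 3.

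Cells short of both proteins were examined by comparing Stag2-/- siStag1 with wild-type siGLO. Here 16 members fell and 5 rose, the falls taking in subunits of all 5 complexes, and the rises small subunits of complexes I, III and V. Called members were 21 of 81, beside 43.9% of all tested genes, of which 22.6% higher and 21.3% lower. The median log2 fold change was -0.064 over members and 0.005 over all tested genes. Without Stag2-/- siStag1 replicate 3 there were 5 rises and 6 falls with a median of -0.012, and without wild-type siGLO replicate 1 the median was -0.033. By complex, 2 of 4 tested genes fell in complex II, 3 of 9 in complex III, 4 of 16 in complex IV, 4 of 34 in complex I and 2 of 15 in complex V. The sum of the embryonic stem cell markers was lowest in this condition, as given above, and 6 of those 7 markers fell.

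In complex III, Uqcrc1 at chr9:108936633-108949623 had 4700, 3864 and 3871 normalized counts against 4960, 5709 and 5604 and fell by 23.6% (log2 fold change -0.39, SE 0.087, adjusted p = 0.00245). Its partner Uqcrc2 had 2597, 2552 and 2325 against 3183, 3298 and 3028 and fell by 21.4% (-0.35, SE 0.073, adjusted p = 0.00156). No library of either gene reached its control range. Uqcrfs1, the Rieske iron-sulfur protein that passes electrons on within complex III, fell by 11.1% (-0.17, SE 0.072, adjusted p = 0.0753), whereas Cyc1, its cytochrome partner, had 4130, 3608 and 3434 normalized counts against 3572, 3557 and 3646.

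In complex II, Sdhd had 2121, 2024 and 1783 normalized counts against 2530, 2488 and 2481 and fell by 20.9% (-0.34, SE 0.079, adjusted p = 0.00331). Sdhb, the iron-sulfur subunit, had 1483, 1640 and 1565 against 1717, 1789 and 1817 and fell by 11.9% (-0.18, SE 0.072, adjusted p = 0.0573). In both genes the groups were apart. Sdha, which holds the flavin and oxidizes succinate, had 5889, 5863 and 5694 against 6319, 6399 and 5888, which overlap by 1 library.

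In complex IV, Cox7a1, the isoform known from heart and muscle, had 21.7, 61.4 and 31.3 normalized counts against 87.9, 85.4 and 123 and fell by 61.4% (-1.37, SE 0.36, adjusted p = 0.00743). Its ubiquitous counterpart Cox7a2 had 1218, 1227 and 1064 against 1366, 1317 and 1373 (-0.21, SE 0.12, adjusted p = 0.202). Cox7a1 was thus 5.44% ± 2.73 (SD, n = 3) of Cox7a2 per kb, against 12.2% ± 2.41 in wild-type siGLO. Cox5a, a nuclear subunit common to all forms of the complex, had 2028, 1979 and 1805 against 2479, 2427 and 2741 and fell (-0.40, SE 0.12, adjusted p = 0.0169), with exons that overlap Gm26631 over 41.7% of their length. Cox4i1 fell as well (-0.27, SE 0.11, adjusted p = 0.0655), with exons that overlap Emc8 over 20.1% of their length. So did Cox4i2, at 8.87, 21.8 and 7.08 normalized counts against 15.9, 33.6 and 51.3, in which the groups overlapped (-1.41, SE 0.49, adjusted p = 0.0328).

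In complex I, Ndufv1 and Ndufv2, core subunits where NADH is oxidized, fell by 15.7% (-0.25, SE 0.082, adjusted p = 0.0281) and 13.4% (-0.21, SE 0.08, adjusted p = 0.0518). The accessory subunits Ndufb5 (-0.32, SE 0.092, adjusted p = 0.0113) and Ndufb11 (-0.25, SE 0.096, adjusted p = 0.0532) fell too. Exons of Ndufb5 overlap Mrpl47 over 20% of their length, and those of Ndufb11 overlap Rbm10 over 12.9%. Among other core subunits, Ndufs1, Ndufs3, Ndufs7 and Ndufs8 were not called. In complex V, Atp5a1 had 21659, 20513 and 19910 normalized counts against 23579, 24349 and 23098 and fell by 12.6% (-0.19, SE 0.069, adjusted p = 0.0385). Atp5c1 fell by 12.1% (-0.19, SE 0.067, adjusted p = 0.0411). Atp5s, which is no subunit, fell with overlapping groups (-0.57, SE 0.21, adjusted p = 0.0462).

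The 5 members that rose were again short transcripts. They were Uqcrh (0.42, SE 0.1, adjusted p = 0.00429), Ndufa5 (0.31, SE 0.093, adjusted p = 0.0146), Atp5e (0.34, SE 0.13, adjusted p = 0.0474), Atp5k (0.56, SE 0.22, adjusted p = 0.0579) and Ndufa1 (0.44, SE 0.19, adjusted p = 0.0735). The calls of Cox5a, Cox7a1, Ndufa5, Ndufb5, Sdhd, Uqcrc1, Uqcrc2 and Uqcrh held with any 1 library left out, and the 13 others did not. Of these, 11 were lost without wild-type siGLO replicate 2 (adjusted p of 0.103 to 0.204, 10 members called), 10 without Stag2-/- siStag1 replicate 3 (0.116 to 0.217, 11 called) and 7 without wild-type siGLO replicate 3 (0.126 to 0.177). Another 5 were lost without Stag2-/- siStag1 replicate 2 (0.105 to 0.172), 3 without Stag2-/- siStag1 replicate 1 (0.105 to 0.174) and 2 without wild-type siGLO replicate 1 (0.13 to 0.159), with some genes lost in several of these fits.

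**Figure D3:**
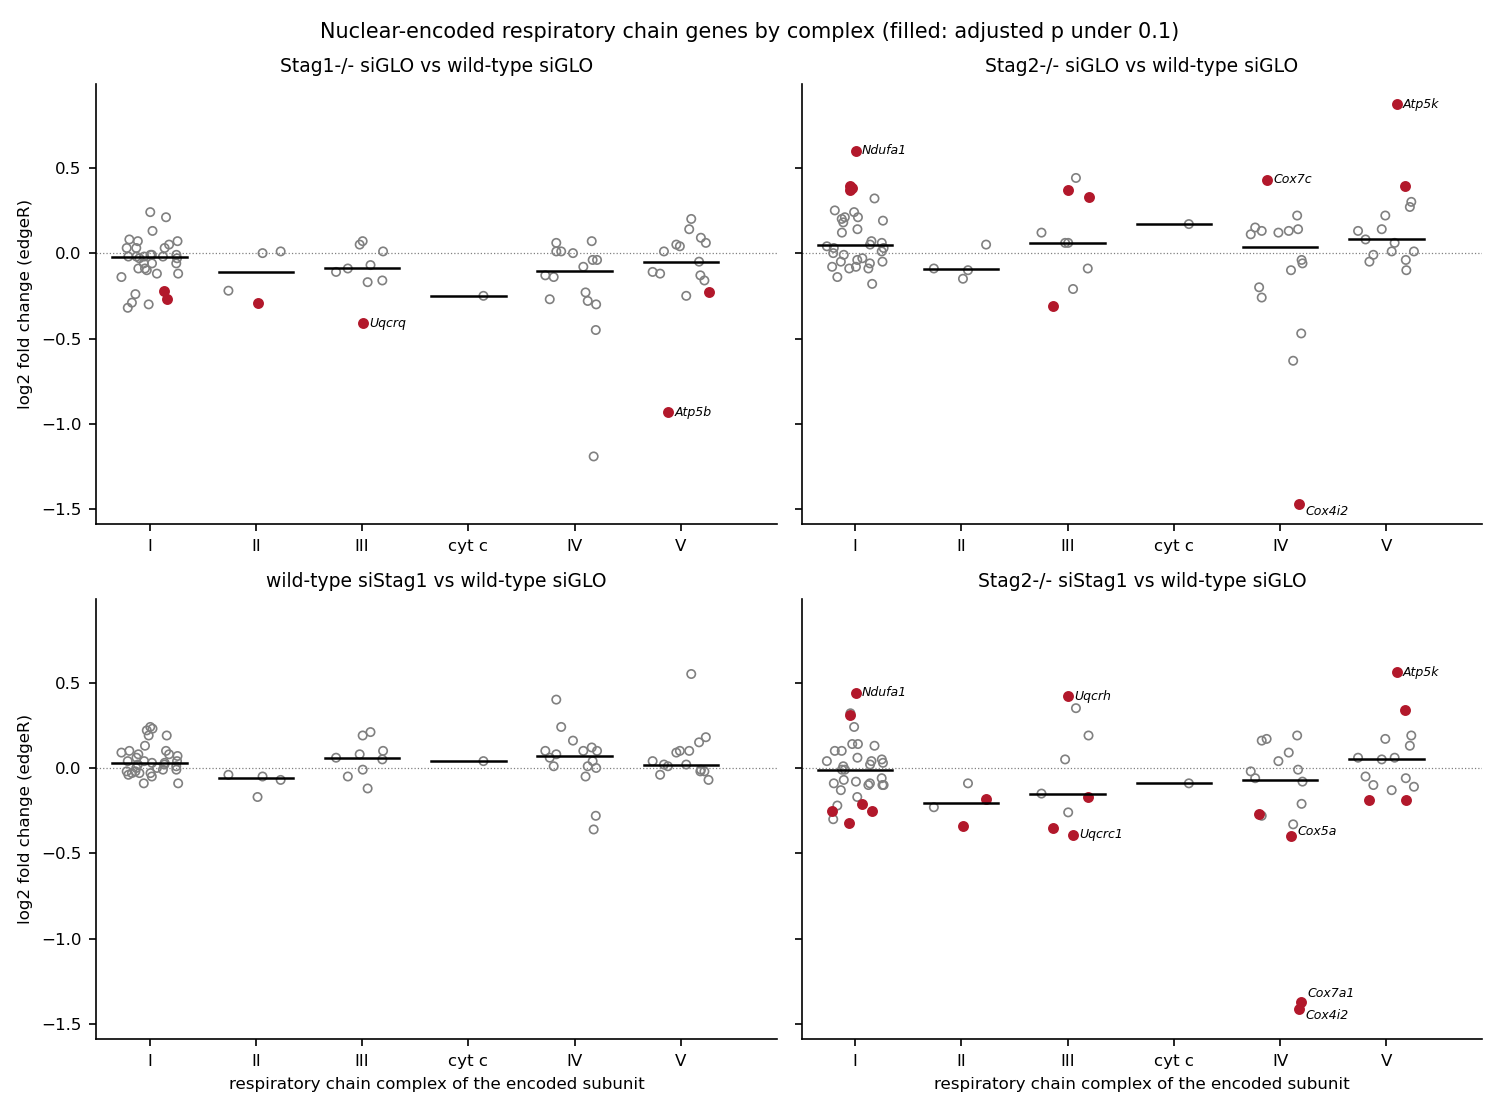
Log2 fold change (edgeR) of each tested subunit gene, grouped by complex (Atp5s and Atp5sl left out), in 4 comparisons with wild-type siGLO (n = 3 libraries per condition); filled points have an adjusted p under 0.1 and bars are medians. In Stag1-/- siGLO the filled point at -0.93 is Atp5b and the open one at -1.19 is Cox4i2, while no point is filled in wild-type siStag1, and complexes II and III have medians of -0.204 and -0.152 in Stag2-/- siStag1.

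The knockouts were also compared with each other, Stag1-/- siGLO against Stag2-/- siGLO. Atp5b, several small subunits of complexes I, III, IV and V, and cytochrome c were lower in the Stag1-/- clone. In all 15 members were lower and 2 higher, 17 of 81 called, beside 25.7% of all tested genes, 12.7% higher and 12.9% lower. The median was -0.139 over members and -0.025 over all tested genes, and it was -0.066 without Stag1-/- siGLO replicate 2, -0.086 without Stag2-/- siGLO replicate 1 and -0.206 without Stag1-/- siGLO replicate 3.

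After Atp5b (-0.92, SE 0.069, adjusted p = 6.39e-07), the largest difference was in Atp5k, with 604, 324 and 525 normalized counts in Stag1-/- siGLO against 977, 614 and 717 (-0.67, SE 0.22, adjusted p = 0.0445). Ndufc1, an accessory subunit of complex I, had 378, 347 and 466 against 623, 556 and 552 (-0.54, SE 0.12, adjusted p = 0.00544). Both genes had every Stag1-/- library under every Stag2-/- library. Cycs, cytochrome c, had 1604, 1443 and 1575 against 2119, 2092 and 1945 and was 24.9% lower (-0.41, SE 0.096, adjusted p = 0.00743), but 21.8% of the stretches of 150 bases in its transcript occur in other annotated copies. Uqcr11, the smallest subunit of complex III, was lower with overlapping groups (-0.51, SE 0.19, adjusted p = 0.0688). Ndufb3 (-0.49, SE 0.14, adjusted p = 0.0202), Ndufa2 (-0.48, SE 0.15, adjusted p = 0.0379) and Atp5g3 (-0.43, SE 0.12, adjusted p = 0.0179), which encodes the c subunit of the rotating ring, were lower too. Higher in the Stag1-/- clone were Uqcrc2 (0.22, SE 0.073, adjusted p = 0.0485) and Atp5a1 (0.20, SE 0.069, adjusted p = 0.0617).

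Atp5b, Atp5f1, Atp5g3, Cycs, Ndufa5, Ndufb3 and Ndufc1 kept these calls with any 1 library left out. Of the 10 others, all were lost without Stag1-/- siGLO replicate 2 (adjusted p of 0.112 to 0.356, 7 members called) and 8 without Stag2-/- siGLO replicate 1 (0.107 to 0.352, 9 called). Without Stag1-/- siGLO replicate 1 and without Stag2-/- siGLO replicate 3 the calls of Atp5a1, Cox6c and Uqcr11 were lost (0.104 to 0.242 and 0.106 to 0.191). Without Stag1-/- siGLO replicate 3, 27 members were called.

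Depletion of STAG1 within the Stag2-/- clone was compared with its siGLO control. A single member, Sdhb, was called, beside 6.37% of all tested genes. It had 1483, 1640 and 1565 normalized counts against 1762, 1835 and 1897 and fell by 14.7% (-0.23, SE 0.072, adjusted p = 0.094), with no overlap between the groups. The call was lost without any 1 of the 6 libraries: without Stag2-/- siGLO replicates 1, 2 and 3 the adjusted p was 0.124, 0.182 and 0.224, and without Stag2-/- siStag1 replicates 1, 2 and 3 it was 0.173, 0.13 and 0.245. Without Stag2-/- siStag1 replicate 1 Cycs, Uqcrc1 and Uqcrq were called in its place. With the replicate block 6 members were called, all lower, namely Sdhb (adjusted p = 0.0379), Cox5a, Cox7a1, Cycs, Ndufv1 and Uqcrq.

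Although few genes passed the test, the estimates leaned one way. Of 81 members 75 (92.6%) had a negative log2 fold change in Stag2-/- siStag1 against Stag2-/- siGLO, beside 48.9% of all tested genes, with a median of -0.089 against 0.006. That median was -0.049 without Stag2-/- siGLO replicate 1, -0.058 without Stag2-/- siStag1 replicate 3 and -0.136 without Stag2-/- siStag1 replicate 1. For the difference between the siStag1 effects, that in Stag2-/- minus that in wild-type cells, 74 of 81 (91.4%) were negative, beside 49% of all tested genes, with a median of -0.142 against 0.005 and of -0.181 to -0.096 with 1 library left out. Other genes with transcripts under 1000 bases had medians close to those of short members, -0.098 against -0.098 in the first comparison and -0.151 against -0.187 in the second, while other long genes were at 0.014 and 0.015 against -0.084 and -0.102 for long members. None was called in that test by edgeR, where 0.159% of all tested genes were called, and none by DESeq2, while 4 of 81 (4.94%) had an unadjusted p under 0.05, beside 842 of all tested genes (5.8%), a share that does not set members apart: Atp5k (-0.86, SE 0.31), Cox7c (-0.50, SE 0.2), Cycs (-0.30, SE 0.14) and Ndufb3 (-0.47, SE 0.19). Genes are not independent replicates and share these libraries, so the count of signs is a description.

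Estimates varied with transcript length in some of the comparisons. Short transcripts, under 1000 bases, make up 46 of the 81 tested members. A length is that of 1 annotated transcript per gene, which puts the small subunit Uqcrq, at 1521 bases, among the long ones. All 9 members that rose in Stag2-/- siGLO and all 5 that rose in Stag2-/- siStag1 were short, while 5 of the 16 that fell in Stag2-/- siStag1 were. In Stag2-/- siGLO against wild-type siGLO the median log2 fold change was 0.131 over short members and -0.034 over long ones. The short median was 0.045 without Stag2-/- siGLO replicate 1. Other genes of the same lengths had medians of 0.120 (898 short genes) and -0.000 (13440 long genes). Across the 81 members Spearman's rho between length and log2 fold change was -0.42 in Stag2-/- siGLO, -0.43 in wild-type siStag1, -0.39 in Stag2-/- siStag1 and -0.08 in Stag1-/- siGLO, and over all genes with a length it was -0.03, -0.08, 0.08 and 0.04. In Stag2-/- siStag1 against Stag2-/- siGLO rho was 0.10 over members (-0.08 to 0.24 across alternative fits), with medians of -0.098 over short and -0.084 over long members. These medians were -0.039 and -0.079 without Stag2-/- siGLO replicate 1. They were -0.045 and -0.068 without Stag2-/- siStag1 replicate 3, and -0.155 and -0.116 without Stag2-/- siStag1 replicate 1. In Stag1-/- siGLO against Stag2-/- siGLO rho was 0.42 over members, with medians of -0.184 over short and -0.035 over long members, and of -0.161 and -0.014 over other short and long genes. The medians of short and long members were -0.104 and 0.023 without Stag1-/- siGLO replicate 2. They were -0.116 and 0.007 without Stag2-/- siGLO replicate 1, and -0.313 and -0.062 without Stag1-/- siGLO replicate 3. These values describe genes that share libraries. Across other normalizations, DESeq2, the fit with a replicate block and the fits without 1 library, rho stayed between -0.46 and -0.38 in Stag2-/- siGLO and between -0.43 and -0.34 in Stag2-/- siStag1, but ran from -0.52 to -0.17 in wild-type siStag1 and from -0.31 to 0.11 in Stag1-/- siGLO.

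**Figure D4:**
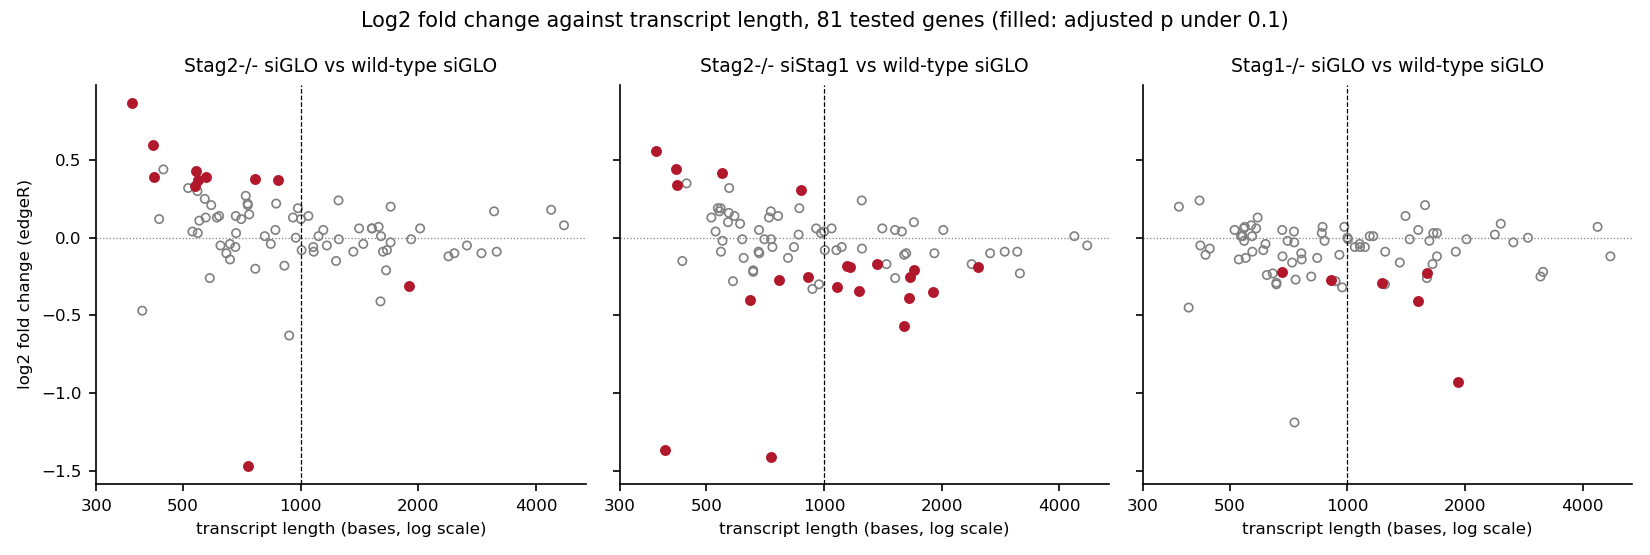
Log2 fold change (edgeR) of the 81 tested members against transcript length in bases (log axis) in 3 comparisons with wild-type siGLO; filled points have an adjusted p under 0.1 and the dashed line marks 1000 bases. All filled points above 0 lie left of the line, and rho is -0.42, -0.39 and -0.08 from left to right.

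Short members also set single libraries apart. Their median log2 ratio to the wild-type siGLO mean was -0.058, -0.343 and 0.118 in replicates 1, 2 and 3 of Stag1-/- siGLO, so 1 condition spanned both the lowest value of the study and one above all wild-type siGLO libraries. It was 0.291, 0.060 and 0.093 in Stag2-/- siGLO, -0.076, 0.039 and 0.260 in wild-type siStag1 and 0.105, 0.058 and -0.106 in Stag2-/- siStag1. Long members moved less, from -0.198 to 0.048 over all 15 libraries. The summed level of complex IV per kb followed, with 44729, 35582 and 52541 in Stag1-/- siGLO against 48244, 45284 and 47703 in wild-type siGLO. The part of RNA length or library preparation in these values was not tested.

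**Figure D5:**
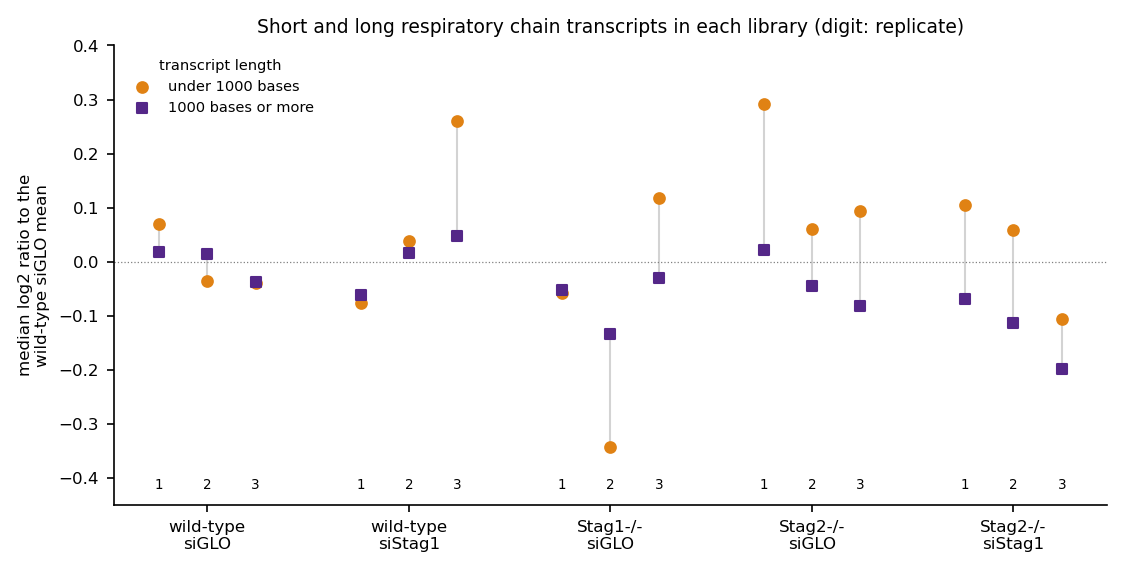
Median log2 ratio to the wild-type siGLO mean over 46 short members (circles) and 35 long members (squares) in each of the 15 libraries, by condition and replicate number. Short members run from -0.343 in Stag1-/- siGLO replicate 2 to 0.291 in Stag2-/- siGLO replicate 1, and long members stay between -0.198 and 0.048.

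Subunits with isoforms were compared per kb of transcript. In wild-type siGLO Cox7a1 was at 12.2% ± 2.41 (SD, n = 3) of Cox7a2 and Ndufa4l2 at 12.6% ± 8.13 of Ndufa4. Atp5g1 was at 10.1% ± 0.662 of Atp5g3, a ratio that rests on annotated lengths of 4715 and 723 bases, since before division by length the means were 2256 and 3428 normalized counts. Cox6b2, the isoform known from testis, stood higher, at 46.5% ± 6.54 of Cox6b1. Cox6b2 was at 48.8% ± 10.4 in Stag1-/- siGLO, 35% ± 5.09 in Stag2-/- siGLO, 58.9% ± 8.37 in wild-type siStag1 and 38.7% ± 8.47 in Stag2-/- siStag1, and its own log2 fold change was called in none of the 7 comparisons. Ndufa4l2, which is known to rise in low oxygen, had 173, 206 and 532 normalized counts in wild-type siGLO, so its replicates spread over a wide range. Atp5g2 was at 80.5% ± 3.97 of Atp5g3, but 85.2% of the stretches of 150 bases in its transcript occur in Gm10175 or Gm10231, which leaves its counts uncertain.

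Genes that build or feed the chain were counted from lists chosen with earlier results of these data known, and these counts stand beside the shares of all tested genes given above. Of 43 tested assembly factors, 10 fell and none rose in Stag1-/- siGLO (10 and 2 with the replicate block), 4 rose and 1 fell in Stag2-/- siGLO (8 and 3 with the replicate block), 5 rose and 10 fell in Stag2-/- siStag1, and none was called in wild-type siStag1. The median log2 fold changes were -0.132, -0.022, -0.113 and 0.009. In Stag1-/- siGLO the largest falls were in Lyrm7 (-0.68, SE 0.25, adjusted p = 0.0809), which guides the Rieske protein into complex III, Sdhaf1 (-0.60, SE 0.14, adjusted p = 0.00756), which helps to load iron-sulfur clusters into SDHB, and Cmc1 (-0.49, SE 0.16, adjusted p = 0.0509), an assembly factor of complex IV. Sdhaf1 held with any 1 library left out, and Lyrm7 and Cmc1 each lost their call in 4 of 6 such fits (adjusted p up to 0.322 and 0.169). In Stag2-/- siGLO the complex IV factors Coa3 (0.44, SE 0.12, adjusted p = 0.0187) and Cox16 (0.44, SE 0.14, adjusted p = 0.041) rose, Cox16 losing its call in 3 of 6 such fits (up to 0.168). In Stag2-/- siStag1 Nubpl (-0.52, SE 0.11, adjusted p = 0.00123) and Ndufaf5 (-0.50, SE 0.12, adjusted p = 0.00481) fell and Ndufaf4 (0.47, SE 0.14, adjusted p = 0.017) rose, all of them factors for complex I.

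Of 18 TCA cycle enzymes and pyruvate dehydrogenase subunits, 1 rose and 3 fell in Stag1-/- siGLO, 4 fell in Stag2-/- siGLO and 9 fell in Stag2-/- siStag1. Idh2, the mitochondrial NADP-dependent isocitrate dehydrogenase, had the largest fall in Stag2-/- siStag1 (-0.99, SE 0.19, adjusted p = 0.000897) and also fell in Stag2-/- siGLO (-0.65, SE 0.19, adjusted p = 0.0243), a call lost without wild-type siGLO replicate 3 (adjusted p = 0.108). In Stag1-/- siGLO the largest change was in Suclg2, a subunit of succinyl-CoA ligase, which had 1557, 1627 and 1778 normalized counts against 2180, 2112 and 2122 and fell (-0.37, SE 0.081, adjusted p = 0.00559), a call kept with any 1 library left out. Pdha1 rose in Stag1-/- siGLO (0.26, SE 0.083, adjusted p = 0.0447) and fell in Stag2-/- siStag1 (-0.47, SE 0.083, adjusted p = 0.000419), and its rise lost the call in 3 of 6 fits with 1 library left out (up to 0.166).

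Of 15 tested regulators of mitochondrial biogenesis, 2 rose and 2 fell in Stag1-/- siGLO, 3 rose and 2 fell in Stag2-/- siGLO, and 3 rose and 3 fell in Stag2-/- siStag1. Gabpa, the DNA-binding part of an ETS factor that acts on respiratory genes, fell in all 3, with log2 fold changes of -0.38 (SE 0.082, adjusted p = 0.00574), -0.38 (SE 0.082, adjusted p = 0.00416) and -0.53 (SE 0.082, adjusted p = 0.000117). These comparisons share their control libraries. Esrra, an orphan nuclear receptor, rose in Stag1-/- siGLO (0.39, SE 0.1, adjusted p = 0.0182), and Nrf1 rose in Stag1-/- siGLO (0.32, SE 0.1, adjusted p = 0.0508), in Stag2-/- siGLO (0.27, SE 0.11, adjusted p = 0.0781) and in Stag2-/- siStag1 (0.31, SE 0.1, adjusted p = 0.0285). Ppargc1b, a coactivator, fell in Stag1-/- siGLO (-0.39, SE 0.13, adjusted p = 0.0645) and in Stag2-/- siStag1 (-0.56, SE 0.14, adjusted p = 0.00426). The calls of Esrra and Gabpa held with any 1 library left out, whereas Nrf1 lost its call in 3, 5 and 1 of 6 such fits in these conditions (adjusted p up to 0.208, 0.306 and 0.144) and Ppargc1b in Stag1-/- siGLO in 4 of 6 (up to 0.245).

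Among subunits and related proteins that the name rule leaves out, 7 genes were tested. Usmg5 (0.68, SE 0.21, adjusted p = 0.0305) and 2010107E04Rik (0.42, SE 0.16, adjusted p = 0.0782), small proteins of the ATP synthase, rose in Stag2-/- siGLO. Cyct, the testis form of cytochrome c, rose in Stag2-/- siStag1 (0.43, SE 0.19, adjusted p = 0.0961). The calls of 2010107E04Rik and Cyct were lost in 5 of 6 fits with 1 library left out, and that of Usmg5 without wild-type siGLO replicate 2 (adjusted p = 0.118). None of the 7 was called in Stag1-/- siGLO or in wild-type siStag1.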

How the data were processed

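RNA-seq of polyA RNA gave 15 libraries, which were grouped by the titles in the sample labels. Per the labels and the study's methods, reads were aligned to mm10 with STAR, and the authors deposited raw counts per gene. The counting tool and strand setting are not given in the sources used here. The deposited counts were used as they stand, leaving out the 4 summary lines for unmapped, multimapping, featureless and ambiguous reads (19.8% to 23.4% of each library).

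All 14508 genes that passed filterByExpr (minimum count 10, minimum total 15) were fitted together in R 4.3.3 with edgeR 4.0.16, using TMM normalization, 1 coefficient per condition and two-sided quasi-likelihood tests. Benjamini-Hochberg adjustment ran over all of them, with a threshold of 0.1. Alternatives were DESeq2 1.42.0, DESeq2 size factors or library size alone, no filter, only the libraries compared, a replicate block, and each library left out. The tests were checked on simulated counts. The members and lists were chosen with earlier results of these data known. Genes named are core subunits, isoform families, the targeted genes, markers, the up to 5 called members with the largest rise and fall per comparison (mean normalized count of at least 50, no overlap), and the up to 3 called genes per list with the largest change. Other genes named, the neighbours of Atp5b among them, were chosen after their values were seen.

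Replicate numbers come from the sample titles, and the sources used here do not say that a number marks a shared batch. Across 11529 genes, deviations from the condition means correlated with a mean r of 0.311 over 30 same-numbered pairs and of -0.152 over 60 others. Every same-numbered pair was over 0.1 in 5 of 7 comparisons. For those the blocked count stands beside a total of members or list genes called where it moved by over 1.5 times. Positions and transcript lengths are from GENCODE M21 and promoter windows from RefSeq. For each gene 1 transcript was used, the longest among equally ranked ones. The split by length and the values per kb rest on this choice. The NRF1 core of 8 letters replaced a longer motif searched first, which fewer windows held. Plots were made in Python 3.11.15 (matplotlib 3.10.9). Some genes that the naming rule covers are not reported here.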

Additional observations from a re-analysis of the deposited data

How the results depend on the processing

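For members called in Stag1-/- siGLO against wild-type siGLO (6), the count was 3 with no expression filter, 14 with the replicate block, and 2 to 14 with 1 library left out. For Stag2-/- siGLO against wild-type siGLO (11) it was 21 with the block and 4 to 13 with 1 library left out. For Stag2-/- siStag1 against wild-type siGLO (21) it was 10 to 22 with 1 library left out. For Stag1-/- siGLO against Stag2-/- siGLO (17) it was 10 with only the libraries compared and 7 to 27 with 1 library left out. For Stag2-/- siStag1 against Stag2-/- siGLO (1) it was 0 with library size alone, 0 with no filter, 0 with only the libraries compared, 6 with the block, and 0 to 3 with 1 library left out. The cause of these shifts was not tested, beyond the smaller number of libraries in some fits. No member was called in wild-type siStag1 against wild-type siGLO, nor for the difference of the siStag1 effects, in any fit run.

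In Stag2-/- siStag1 against wild-type siGLO and for the difference of siStag1 effects, not every same-numbered pair correlated over 0.1. Whether the samples there share more than a number is not known. The replicate block gave 29 and 0 calls. For 13 of 15 libraries, the mean correlation with libraries of other conditions was highest for their own number, a hint from the data. Of 6750 values for single named genes under an alternative, 6168 kept their side of the threshold and direction, 201 lost a call, 73 gained one, and 308 uncalled estimates changed sign. No called gene changed sign. With 3 libraries per condition, changes of low genes such as Cox4i2 are poorly resolved at this depth.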
